A study of Mus musculus with 4 samples.

Results

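Genes of the peptide elongation step and its surroundings were followed in skeletal muscle: Eef1a1, Eef1a2, Eef1b2, Eef2, Tpt1 and Gnb2l1, the older symbol of Rack1. The members were taken by symbol from the deposited table of 1000 genes, and 6 of 6 were listed with reads in all 4 libraries. Tibialis anterior muscle came from Dmd Dup2 mice, a model of Duchenne muscular dystrophy in which dystrophin exon 2 is duplicated. All libraries carry this genotype. The untreated group received no vector, and the treated group received scAAV9.U7-ACCA, an adeno-associated virus that carries a U7 small nuclear RNA meant to make splicing skip an exon. Each group gave an mRNA library from total RNA and a library of ribosome footprints, the short mRNA pieces that a ribosome shields from nuclease. The labels give no age, sex, dose, route, time after injection or number of animals, and no healthy muscle without the duplication is among the samples.

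Each of the 4 groups is 1 library, so every difference below compares libraries, has no replicate check and carries no p-value. Intervals are 95% intervals that cover counting error only. The smallest library, untreated mRNA, held 125236 listed reads and the largest, treated mRNA, 4248818. The untreated mRNA library sets the width of most mRNA intervals. Of 11 markers of mature fast fibres, 10 were listed, and they held between 23.4% and 32.9% of the listed reads of each library. Ttn alone held 8.67% of the untreated and 26.5% of the treated mRNA reads listed, and its weight moves the scaling of the mRNA pair. Values were scaled by TMM, a trimmed mean of gene-wise ratios, and are given as scaled reads per 1000000 reads. A gene was called higher or lower in the treated library at 1.5-fold or more, with an interval that excludes 1 and at least 50 reads over the pair of libraries.

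During elongation the factor eEF1A, bound to GTP, brings each aminoacyl-tRNA to the ribosome. The eEF1B complex, of which Eef1b2 encodes a nucleotide exchange subunit, reloads eEF1A with GTP, and eEF2 then moves the ribosome along by one codon. Eef1a1 and Eef1a2 encode closely related forms of eEF1A. Most tissues use Eef1a1, while adult muscle fibres and neurons switch to Eef1a2 after birth. Tpt1 encodes translationally controlled tumour protein, a small growth-linked protein that binds elongation factors, and Gnb2l1 encodes RACK1, a scaffold on the small ribosomal subunit. Several of these mRNAs are known members of the class with a terminal oligopyrimidine tract, or TOP, a run of C and T bases that begins with C at the very start of the transcript. Growth signalling through mTORC1 is known to set how many ribosomes TOP mRNAs carry.

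DNA near the RefSeq start of each gene is shown because a TOP tract lies at the first bases of a transcript. RefSeq entries on assembly GRCm38.p6 were found for 6 of 6 genes. Within 50 bases on either side of the annotated start, on the strand of the gene, the longest run of C and T beginning with C is in capitals. Each line holds 30 bases from 5′ to 3′, centred on that run except for Tpt1, whose line ends at the edge of the window. The deposited counts refer to mm9, so these positions serve only to locate the sequences.
Eef1a1: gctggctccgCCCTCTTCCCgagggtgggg
Eef1a2: gctcactggttCTCTCCCTCgctccggtgc
Eef1b2: ttgcgtccgagcgCTTTCgttcaactccgg
Eef2: gacgtcagcggtCTCTTCCgccgcagccgc
Tpt1: cggtgacgtagccgagcgtgCCCTCTatat
Gnb2l1: gaggccgCTCTTTCTTTTTCTCCacagggt

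The Eef1a1 line is chr9:78481710-78481739 and the Eef1a2 line chr2:181156980-181157009, both on the minus strand. On the plus strand are Eef1b2 at chr1:63176850-63176879, Eef2 at chr10:81176634-81176663, Tpt1 at chr14:75845276-75845305 and Gnb2l1 at chr11:48800347-48800376. The run of Gnb2l1 was 16 bases long, began 6 bases before the annotated start, and was matched or exceeded in 2.21% of 32851 RefSeq start regions of the same length. The run of Eef1a1 had 10 bases (14.4% of start regions had one as long), that of Eef1a2 9 bases (20.1%) and that of Eef2 7 bases (40.7%). The Eef1a1 run began 5 bases before the annotated start, so neither it nor the run of Gnb2l1 began at the annotated first base. With the annotated start as position 1, the other runs began at 16 for Eef2, 18 for Eef1a2, 33 for Eef1b2 and 41 for Tpt1. The lines of these 4 genes thus lie wholly after the annotated start. Whether any of the 6 runs is the TOP tract of the muscle transcript was not tested. Runs of 6 bases, as for Tpt1, or of 5, as for Eef1b2, occurred in 58.1% and 77.1% of regions and so do not set these genes apart. Start regions were found for 50 of the 68 listed cytosolic ribosomal protein genes, some with more than 1. Among these 58 regions, 50 had a run of at least 7 bases (86.2%). An annotated start need not be the start used in muscle, and a short run in this window says nothing about the tract of the transcript itself.

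Footprints of Eef1a1, Eef1b2, Eef2, Tpt1 and Gnb2l1 were 2.19-fold to 4.17-fold lower in the treated library, while the mRNA of Eef2, Tpt1 and Gnb2l1 was 1.58-fold to 2.09-fold higher. Footprints per mRNA (translation efficiency), the ratio of the 2 ratios, were therefore lower for Eef1b2, Eef2, Tpt1 and Gnb2l1. Eef1a1 differed from these, since on the TMM scale its mRNA and its footprints were lower to a like extent. Eef1a2 was called neither way on any of the 3 measures. The plot of scaled reads by library shows all 24 values.

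**Figure D1:**
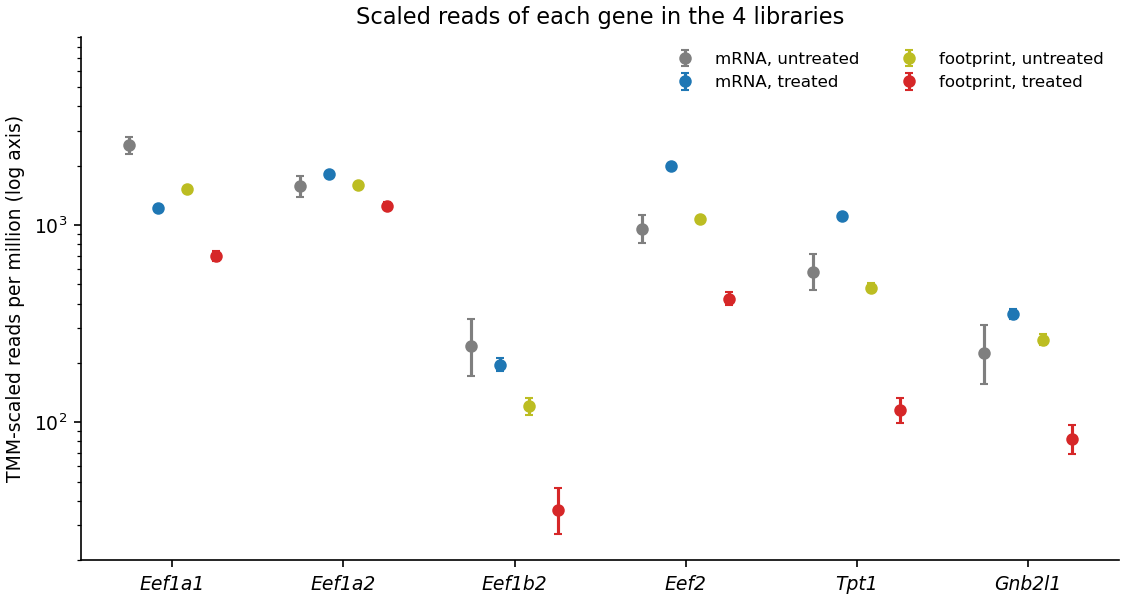
TMM-scaled reads per 1000000 reads (log axis) of each gene in the 4 libraries, with exact 95% Poisson intervals for counting error. The treated footprint library (red) is the lowest of the 4 points for all 6 genes, and treated mRNA (blue) is the highest for Eef1a2, Eef2, Tpt1 and Gnb2l1.

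Eef1a1 (NM_010106) had 398 reads in untreated mRNA, 4123 in treated mRNA, 5210 in untreated footprints and 1151 in treated footprints. As TMM-scaled reads these were 2540, 1221, 1530 and 699.6 in the same order. Both treated libraries thus lay below their untreated partners. The mRNA was 2.08-fold lower (1.87 to 2.31) and the footprints were 2.19-fold lower (2.05 to 2.33) in treated muscle. Its footprints per mRNA had a ratio of 0.953 (0.844 to 1.08), an interval that holds 1. With scaling by the listed totals this ratio turned above 1, at 0.54 on the log2 scale, and with the authors' constants it was also 0.54. It was above 1 with the upper quartile and without the top 20 genes as well, at log2 ratios of 0.21 and 0.23. With each of these scalings the interval excluded 1 (1.29 to 1.65 with the listed totals), though the ratio stayed inside the fold threshold.

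Eef1a2 (NM_007906) had 246, 6134, 5405 and 2062 reads in untreated mRNA, treated mRNA, untreated footprints and treated footprints. The scaled reads were 1570, 1816, 1587 and 1253, the narrowest range over the 4 libraries among the 6 genes when taken as highest over lowest. Its mRNA ratio was 1.16 (1.02 to 1.32) and its footprint ratio 0.790 (0.750 to 0.831), both inside the fold threshold. Footprints per mRNA were 1.46-fold lower (1.27 to 1.68), just short of that threshold. This direction turned with the listed totals and with the authors' constants, to log2 ratios of 0.07 and 0.06, whose intervals hold 1. The authors' constants put both its mRNA and its footprints in the lower class, with log2 ratios of −0.67 and −0.61.

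The comparison of the 2 forms needs no library scaling. Of the reads of both genes, Eef1a1 held 61.8% (exact binomial 95% interval 57.9 to 65.6) in the untreated mRNA library, against 40.2% (39.2 to 41.2) in the treated one. In footprints the share was 49.1% (48.1 to 50.0) untreated and 35.8% (34.2 to 37.5) treated. The share of Eef1a1 was lower in treated muscle on both readouts, and the intervals of untreated and treated libraries did not overlap. The odds of an Eef1a1 read against an Eef1a2 read were 2.41-fold lower (2.04 to 2.84) in treated mRNA and 1.73-fold lower (1.59 to 1.87) in treated footprints. These are shares of reads, without a correction for transcript length, so only their shift between conditions is compared.

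**Figure D2:**
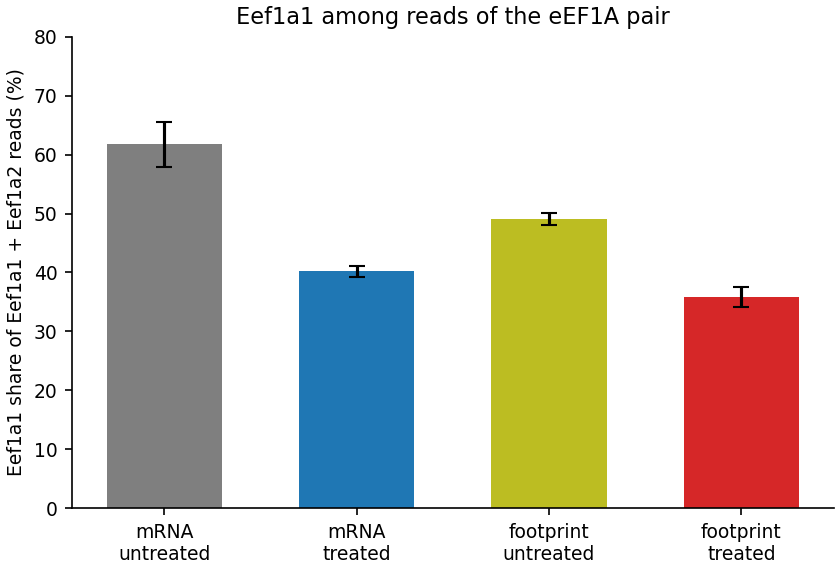
Share of Eef1a1 among the reads of Eef1a1 and Eef1a2 in each library (bars, in percent), with exact binomial 95% intervals. The treated bars stand at 40.2% and 35.8%, below the untreated bars at 61.8% and 49.1%.

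Together the reads of both forms were 1.35-fold lower (1.25 to 1.47) in treated mRNA and 1.60-fold lower (1.53 to 1.66) in treated footprints on the TMM scale. The mRNA difference was 2.13-fold (1.96 to 2.31) with the listed totals and 2.49-fold (2.30 to 2.70) with the authors' constants. Markers of other cells and of young fibres were counted in the same libraries, with calls on the TMM scale and summed shares on that of the listed totals. Of 8 listed macrophage markers out of 18, 6 were lower in treated mRNA and 0 higher. Their summed share of listed mRNA reads was 0.311% untreated and 0.0982% treated, and in footprints 0.434% and 0.249%. Of 14 listed fibroblast and matrix markers out of 16, 9 were lower in mRNA and 3 higher, and 13 of the 14 had lower footprints. Their summed share was 2.55% in untreated and 0.413% in treated mRNA. Of 4 listed markers of immature or regenerating fibres out of 13, Myl4 and Actc1 were lower in mRNA, while Myh3 and Myh8 were called neither way, and the summed share was 5.71% and 2.93% in mRNA and 8.35% and 7.14% in footprints. No listed marker was at 0 in any library, and none of 5 red blood cell markers was listed. The part of these cells in the Eef1a1 values was not tested, and in whole muscle fewer cells of a type cannot be told apart from less RNA per cell.

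Eef1b2 (NM_018796), for the exchange subunit, had 38, 662, 410 and 59 reads in untreated mRNA, treated mRNA, untreated footprints and treated footprints. The scaled reads were 243, 196, 120 and 35.9, with treated footprints far below the other libraries. The mRNA ratio of 0.808 (0.583 to 1.15) rests on 38 untreated reads, and its interval holds 1. Footprints were 3.36-fold lower (2.55 to 4.49) and footprints per mRNA 2.66-fold lower (1.74 to 4.06). With the listed totals, the upper quartile and the authors' constants the mRNA was also called lower, with log2 ratios of −0.96, −0.71 and −1.19.

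Eef2 (NM_007907), for the translocation factor, had 150 mRNA reads untreated and 6764 treated, and 3674 footprint reads untreated and 697 treated. The scaled reads were 957 and 2002 in mRNA and 1079 and 424 in footprints. The readouts thus moved in opposite directions. The mRNA was 2.09-fold higher (1.78 to 2.48), the footprints 2.55-fold lower (2.35 to 2.76) and the footprints per mRNA 5.31-fold lower (4.43 to 6.36). The mRNA log2 ratio of 1.06 fell short of the threshold with the listed totals, at 0.41, and with the authors' constants, at 0.18. The log2 ratio of footprints per mRNA stayed between −2.38 and −1.79 under the 5 other scalings.

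Tpt1 (NM_009429) had 91 and 3749 mRNA reads and 1640 and 190 footprint reads in untreated and treated muscle. The scaled reads were 581 and 1110 in mRNA and 482 and 115 in footprints. Its mRNA was 1.91-fold higher (1.55 to 2.38), while its footprints were 4.17-fold lower (3.59 to 4.87). The mRNA log2 ratio of 0.93 fell short of the threshold with the listed totals, the upper quartile and the authors' constants, at 0.28, 0.54 and 0.05. Footprints per mRNA were 7.91-fold lower (6.12 to 10.2), the largest such difference among the 6 genes. The footprint ratio stood at percentile 2.60 of 999 genes and the ratio of footprints per mRNA at percentile 1.51 of 995. The RefSeq table names 7 pseudogenes of Tpt1, 2 of Eef1a1 and 1 of Eef2. How reads that match more than 1 copy were counted is not stated in the sources, so single values of these genes are uncertain to that extent.

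Gnb2l1 (NM_008143), for RACK1, had 35 and 1194 mRNA reads and 894 and 135 footprint reads in untreated and treated muscle. Scaled reads were 223 and 353 in mRNA and 262 and 82.1 in footprints. The mRNA was 1.58-fold higher (1.13 to 2.28), a call that was lost with every scaling except TMM and the DESeq2 size factors. Footprints were 3.20-fold lower (2.67 to 3.86) and footprints per mRNA 4.98-fold lower (3.41 to 7.28). The latter was called lower with each of the 5 other scalings, with log2 ratios from −2.28 to −1.70.

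**Figure D3:**
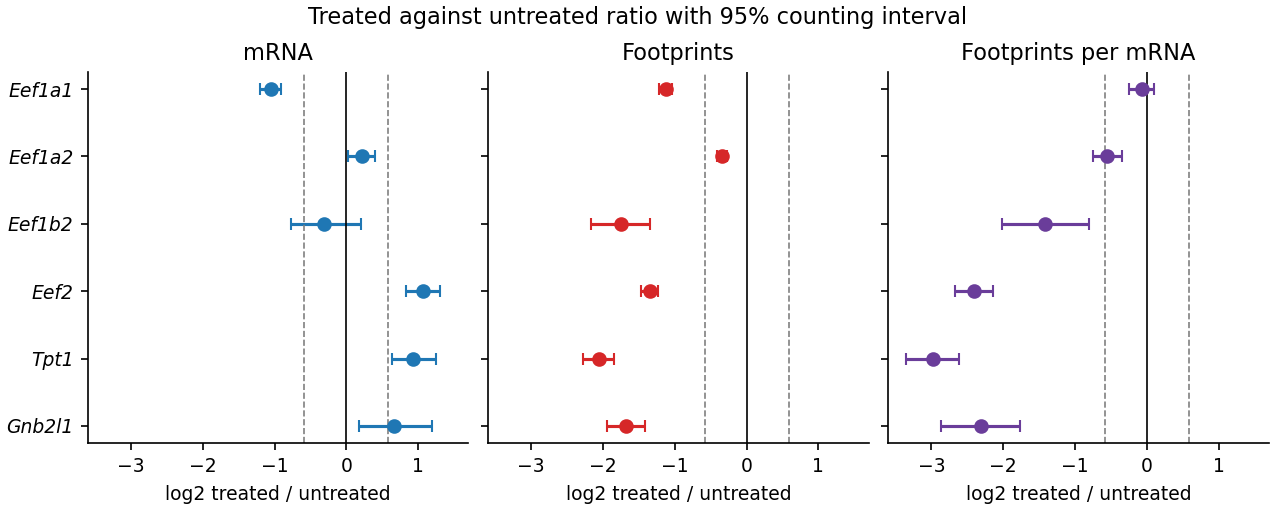
Log2 ratio of treated to untreated for mRNA (left), footprints (middle) and footprints per mRNA (right), with 95% counting intervals. Dashed lines mark 1.5-fold, and all 6 footprint points lie left of 0, with Eef1a2 closest to it at −0.34.

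In mRNA, 3 of the 6 genes were higher, against 31.8% of 996 genes tested, and 1 of 6 was lower, against 24.8%, so the mRNA counts lie near those of the listed genes. The listed totals gave 0 higher and 2 lower in mRNA, and the authors' constants 0 higher and 3 lower. In footprints, 0 of 6 were higher, against 19.9% of 999 genes, and 5 of 6 were lower, against 26.2%. In footprints per mRNA, 0 of 6 were higher, against 26% of 995 genes, and 4 of 6 were lower, against 31.9%. The members were chosen with earlier results of these data known, so these counts cannot show that the set stands apart. The median log2 ratio of the 6 genes lay 0.38 above the median tested gene in mRNA, 1.49 below it in footprints and 1.75 below it in footprints per mRNA (differences of −1.49 and −1.75). Scaling moves all mRNA ratios together, and the median tested gene had an mRNA log2 ratio of 0.06 under TMM, −0.60 under the listed totals and −0.82 under the constants of the authors. Of the genes called in mRNA, 56.2% were higher under TMM, 24.2% under the listed totals and 16.8% under those constants. In footprints per mRNA these shares were 45.0%, 73.9% and 73.8%, and in footprints 43.2%, 39.96% and 23.8%. The distance of each gene from the median gene does not depend on scaling. In mRNA this log2 distance was −1.12 for Eef1a1, 0.15 for Eef1a2, −0.37 for Eef1b2, 1.01 for Eef2, 0.88 for Tpt1 and 0.60 for Gnb2l1.

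Within each condition, footprints per mRNA read were also set against the median listed gene, which cancels the scaling. In untreated muscle, Gnb2l1 stood at 1.16 times the median gene, Eef2 at 1.12 times, Eef1a2 at 1.00 times and Tpt1 at 0.821 times. In treated muscle the same genes stood at 0.234, 0.214, 0.697 and 0.105 times the median gene. Eef2, Tpt1 and Gnb2l1 thus went from the middle of the listed genes, at percentiles 58.4, 36.3 and 61.4, to the low end, at percentiles 7.0, 1.7 and 7.8. Eef1b2 was low in both, at 0.491 times the median gene untreated and 0.185 times treated. Eef1a1 stayed at a like place, at 0.596 times untreated and 0.579 times treated. The level of this measure also depends on how much of a transcript is coding, so genes are compared here only by the shift between conditions.

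**Figure D4:**
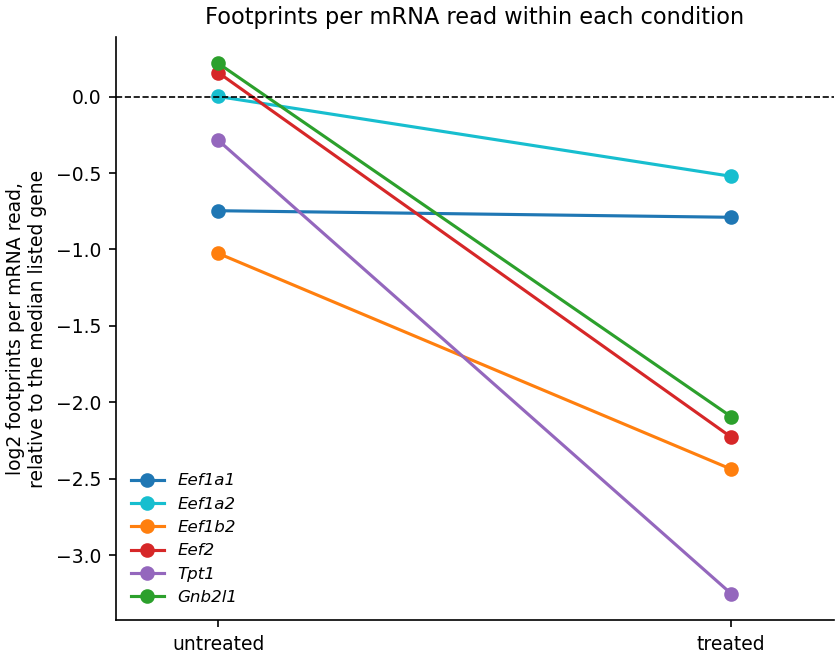
Log2 of footprints per mRNA read relative to the median listed gene (dashed line) in untreated and treated muscle, 1 line per gene. The lines of Eef2, Tpt1, Gnb2l1 and Eef1b2 drop steeply, whereas that of Eef1a1 is nearly flat, from −0.75 to −0.79.

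The 6 genes also differed from each other. In 15 pairs of genes, a ratio of ratios is free of scaling, and its interval excluded 1 in 11 pairs for mRNA, 12 for footprints and 13 for footprints per mRNA. Eef1a1 had 5.07 times (4.08 to 6.30) the footprints-per-mRNA ratio of Eef2, 7.58 times (5.71 to 10.1) that of Tpt1 and 4.82 times (3.23 to 7.19) that of Gnb2l1. Against Eef1a2 the factor was 1.39 (1.16 to 1.67). Eef2 and Gnb2l1 could not be separated on this measure, at a factor of 0.950 (0.623 to 1.45), nor could Tpt1 and Gnb2l1, at 0.635 (0.401 to 1.01). In mRNA, Eef2, Tpt1 and Gnb2l1 could not be separated from each other, with factors of 1.09 (0.841 to 1.42) for Eef2 against Tpt1, 1.32 (0.910 to 1.92) for Eef2 against Gnb2l1 and 1.21 (0.813 to 1.79) for Tpt1 against Gnb2l1. The same held for Eef1a2 against Gnb2l1 in mRNA, at 0.731 (0.510 to 1.05). Eef1b2 footprints could not be separated from those of Eef2, Tpt1 or Gnb2l1. These intervals are not adjusted for the number of pairs. No such count was made for pairs of other listed genes, so the counts of pairs do not set the 6 genes apart.

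Cytosolic ribosomal proteins, whose mRNAs are the best-known TOP class, are the nearest group to set beside these genes. Of 68 listed ribosomal protein genes, 27 were higher and 7 lower in treated mRNA, 2 higher and 48 lower in footprints, and 5 higher and 48 lower in footprints per mRNA. The mRNA split depended on scaling, with 6 higher and 25 lower under the listed totals, 5 and 28 under the authors' constants and 15 and 13 under the upper quartile. In footprints 2 were higher and 46 to 55 lower under the 5 other scalings, and with the listed totals or the authors' constants 9 were higher and 32 lower in footprints per mRNA. Their median lay 0.31 above the median gene in mRNA, with differences of −0.88 in footprints and −1.08 in footprints per mRNA. Tpt1 had a lower ratio of footprints per mRNA than 64 of the 68, Eef2 than 61, Gnb2l1 than 60 and Eef1b2 than 41. Eef1a2 lay below 15 and Eef1a1 below 9 of them. Rplp0, a protein of the ribosomal stalk where elongation factors dock, had the lowest ratio of footprints per mRNA of that list, 3.85 log2 units below 0 (log2 ratio −3.85), and Rps27a the highest, at 1.91. The combination of higher mRNA and lower footprints, both called, was found in Eef2, Tpt1 and Gnb2l1, in 20 of the 68 ribosomal protein genes and in 58 of 995 genes tested in both (5.83%). With the listed totals Eef2, Tpt1 and Gnb2l1 were no longer called higher in mRNA, so this combination holds for the TMM scale. No test of the difference between the lists was made, and members and lists were chosen with earlier results of these data known.

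**Figure D5:**
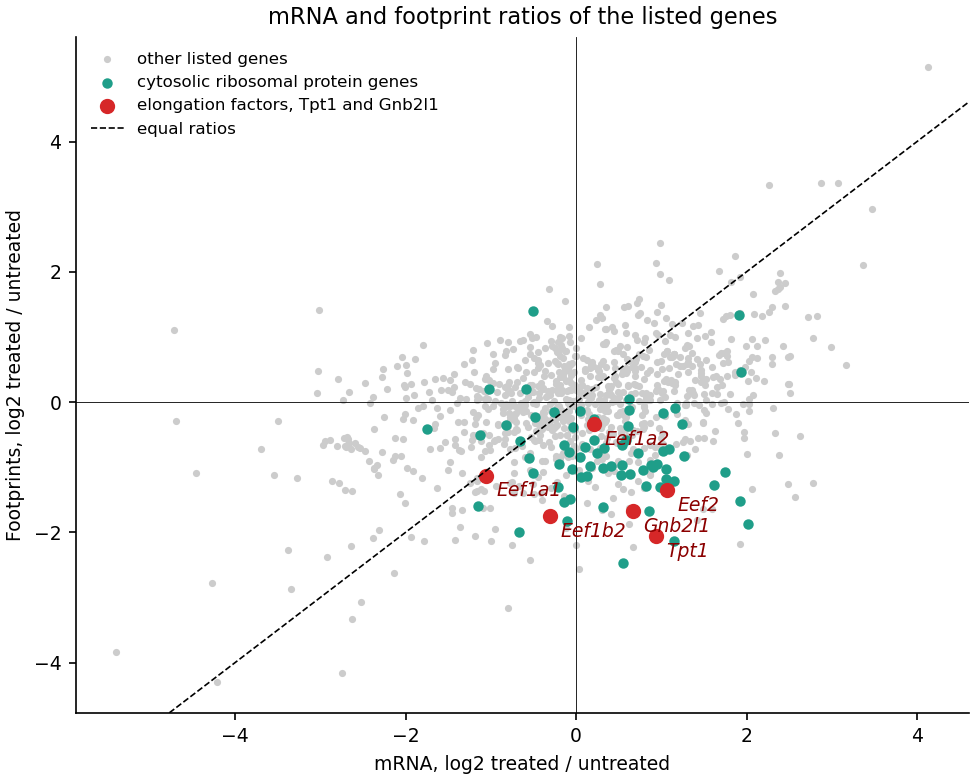
Log2 ratio of treated to untreated in mRNA (horizontal axis) and footprints (vertical axis) for the listed genes, with the 68 ribosomal protein genes in green and the 6 genes of interest in red. Eef2, Tpt1 and Gnb2l1 lie in the lower right, at higher mRNA and lower footprints, and Eef1a1 lies close to the dashed line of equal ratios.

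Other factors of elongation and termination were few in the table, since 2 of 13 were listed. Eef1g, the gamma subunit of the eEF1B complex, had 97 and 1487 mRNA reads and 1041 and 190 footprint reads in untreated and treated muscle. Its mRNA ratio was 0.711 (0.579 to 0.882), and its footprints were 2.65-fold lower (2.27 to 3.11). Its footprints per mRNA were 1.87-fold lower (1.45 to 2.42), between the values of Eef1a2 and Eef1b2. The last of these calls was lost with the listed totals and the authors' constants, at log2 ratios of −0.29 for both. Etf1, the release factor that reads stop codons, was 1.74-fold higher (1.11 to 2.91) in mRNA from 19 untreated reads, 1.63-fold lower (1.25 to 2.14) in footprints and 2.75-fold lower (1.64 to 4.62) in footprints per mRNA. In mRNA, 1 of the 2 genes was higher and 0 lower under TMM, and 0 higher and 1 lower under the listed totals. Of 8 mitochondrial translation factors, Gfm1, a mitochondrial elongation factor, was the 1 listed, and it was called neither way on any measure.

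Initiation factors and poly(A)-binding genes act before the first peptide bond is made. Of 19 listed, 7 were higher (36.8%) and 0 lower in mRNA, against 31.8% and 24.8% of all tested genes. Footprints were higher in 5 (26.3%) and lower in 1 (5.26%), against 19.9% and 26.2%. Footprints per mRNA were higher in 2 (10.5%) and lower in 7 (36.8%), against 26% and 31.9%. Several of these genes had few untreated mRNA reads, such as 14 for Eif3h and Eif3l and 18 for Eif1. With the listed totals 4 were higher and 4 lower in mRNA, and with the authors' constants 3 higher and 7 lower. Both of these scalings gave 5 higher and 2 lower in footprints per mRNA, and the authors' constants gave 2 higher and 3 lower in footprints. Their footprint median lay 0.02 below the median gene (a difference of −0.02), against −1.49 for the 6 genes. Eif1, a factor of start codon choice, was 2.04-fold higher (1.81 to 2.30) in footprints, and Eif3l, a subunit of the eIF3 complex, was the gene with lower footprints, at 1.71-fold (1.39 to 2.13). Of 13 other mRNAs known for a TOP tract 7 were listed, among them Eef1g and 2 of the initiation list, Pabpc1 and Eif3h. In footprints per mRNA 4 of these 7 were lower, and with the listed totals or the authors' constants 0 were lower and 2 higher. Npm1, a nucleolar chaperone, was 1.82-fold lower (1.52 to 2.20) in footprints. Naca, a chaperone at the ribosome exit, and Vim, an intermediate filament gene, had footprint ratios of 1.01 (0.966 to 1.06) and 0.872 (0.817 to 0.931). Lower footprints were therefore not shared by all listed genes of the TOP lists.

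The genes nearest in pattern over the 4 libraries were sought among those with at least 100 reads in each library, by Euclidean distance between centred log2 scaled reads. Tpt1, Gnb2l1 and Eef1b2, with 91, 35 and 38 untreated mRNA reads, could thus not be candidates for other genes. The filter also left out most of the 68 ribosomal protein genes, which together held 2313 untreated mRNA reads. Their absence among the nearest genes is therefore not a result. Eef2 was the nearest of 115 candidate genes to Tpt1, at a distance of 0.89, and to Gnb2l1, at 0.38, where the median candidate stood at 2.69 and 1.94. The next for Gnb2l1 was Gapdh, a glycolytic enzyme, at 0.42, and the next for Tpt1 was Mybpc2, the fast myosin-binding protein C, at 1.04. Nearest to Eef2 were Mybpc2 at 0.43 and Actn3, the fast form of alpha-actinin, at 0.51. Gapdh, Mybpc2 and Actn3 were each called higher in mRNA, lower in footprints and lower in footprints per mRNA, with log2 ratios of −2.24, −1.74 and −1.66 for the last measure. Nearest to Eef1a1 were Cox4i1, a subunit of cytochrome oxidase, at 0.34 and Mybpc1, the slow myosin-binding protein C, at 0.36. Both were called lower in mRNA and in footprints. Eef1a2 lay closest to Aldoart1, a copy of the aldolase A gene, at 0.15 and to Myl1, a fast myosin light chain, at 0.30. Reads under Aldoart1 may come from the aldolase A gene itself, since the counting of reads that match more than 1 copy is not stated. Eef1b2 lay closest to Kbtbd10 at 1.06 and Myo18b at 1.07, which is a loose match beside a median of 2.42. Likeness over 4 libraries is a description and says nothing of shared function.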

How the data were processed

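Tibialis anterior mRNA and ribosome footprints were measured in 4 libraries, 1 per group. Per the file headers, the authors deposited read counts per gene and normalized read counts for 1000 genes. The deposited normalized values were read as CPM: in each library they are a fixed multiple of the count, within 0.1, and the listed genes sum to less than 1000000. Whether that multiple holds a normalization factor is not stated. Per the submitters' processing notes, Trimmomatic, STAR, edgeR and mm9 were used, with no versions given. The genes are those with the most untreated mRNA reads, with 14 as the lowest count.

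Counts were scaled by TMM (edgeR 4.0.16, R 4.3.3) over the listed genes. Ratios have exact conditional binomial 95% intervals. Footprints per mRNA used 0.5 added to each count and a normal interval on the log scale, as did pairs of genes without an added count. Calls needed 1.5-fold, an interval without 1 and 50 reads. The procedure was tested on simulated data. Reads had no molecular identifiers and are not independent molecules. Alternatives were 5 other scalings, including DESeq2 1.42.0, other read minimums, a 2-fold threshold and 5 added to each count. Named genes were the 6 members, called genes of fixed lists of translation genes and the 2 nearest genes in pattern for each member. The members and lists were chosen with earlier results of these data known. The RefSeq table (GRCm38.p6), used for names, matched 996 of the 1000 identifiers.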

Additional observations from a re-analysis of the deposited data

How the results depend on the processing

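Lower footprints of Eef1a1, Eef1b2, Eef2, Tpt1 and Gnb2l1 were called with TMM and the 5 other scalings. So were lower footprints per mRNA of Eef1b2, Eef2, Tpt1 and Gnb2l1. The read minimums tried, of up to 200 reads, could not change a call, since each of the 6 genes had more reads in each pair of libraries. The mRNA calls depended on scaling. With 4 of 6 genes called in mRNA under TMM, 2 were called with the listed totals (0 higher, 2 lower) and 2 at a 2-fold threshold, while the authors' constants gave 0 higher and 3 lower. With the authors' constants the mRNA log2 ratio turned to −0.67 for Eef1a2 and to −0.22 for Gnb2l1, since these constants lower all mRNA ratios together. Over 132 comparisons of single-gene ratios with an alternative, 118 kept their class, 9 lost a call and 5 gained one. The 118 include all comparisons with another read minimum, which could not change, so the count overstates how stable the calls were. The sign of the log2 ratio changed in 11 of the 132, and no gene was called in opposite directions. At a 2-fold threshold 20 ribosomal protein genes were called in mRNA and 29 in footprints, against 34 and 50 at 1.5-fold, and 4, 1 and 5 initiation genes in mRNA, footprints and footprints per mRNA, against 7, 6 and 9. No replicate could be left out and no paired analysis was possible because each group has 1 library. Depth limits Gnb2l1 and Eef1b2 most, with 35 and 38 untreated mRNA reads.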
